A study of Mus musculus with 12 samples.

Results

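The genes described here code for the enzymes and core partners that add chemical marks to histones or take them off: the histone methyltransferases and the other SET domain proteins, the core of Polycomb repressive complex 2, the histone demethylases, the histone deacetylases and the histone acetyltransferases. A list of 59 genes was given by name, and a transcript of the count table was taken as a member when its identifier belongs to one of these genes in GENCODE vM21. Of the 59 genes, 53 had at least 1 transcript in the table, 219 transcripts in all among the 48033 that the table lists. Total RNA of the hippocampus and the cerebral cortex was sequenced from mice on the C57BL/6J background at 7 months of age, after ribosomal RNA had been removed, and each of the 4 groups (WT hippocampus, 5 × FAD hippocampus, WT cortex and 5 × FAD cortex) has 3 libraries. The 5 × FAD mice carry transgenes for mutant human APP and PS1 from familial Alzheimer's disease and were compared with WT mice of the same age. The transgenes of this strain are expressed from elements of the neuronal Thy1 gene, so the model speaks to mutant protein made mainly by neurons. Whether libraries with the same number in the 2 regions came from the same mouse is not stated.

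DNA in the nucleus is wound around histones, and the marks on their tails set how open a stretch of chromatin is and which proteins bind it. Acetyltransferases such as Crebbp and Ep300 mark active promoters and enhancers, deacetylases remove that mark, and methylation can mark active genes (the work of the Kmt2, Setd1, Nsd and Setd2 enzymes) or silent ones (the work of Setdb1, Ehmt1, Ehmt2 and Ezh2). In the brain these enzymes are known for their part in memory formation and in the timing of neuronal differentiation, and mutations in many of them cause intellectual disability.

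The libraries held between 3517967 and 5014389 counts, and 3 counts were taken as the least that can be told from 0 in a library, a floor that covers counting error only. The members took between 0.329% and 0.376% of them. Sources for the series state 2 females and 1 male per group, but the libraries labelled 5 × FAD 1 and 5 × FAD 2 of both regions held between 30468 and 46630 Xist counts and 0 counts of 4 Y-linked genes, while each of the other 8 libraries had at most 25 Xist counts and between 1074 and 1661 Y-linked counts. Genotype and this difference cannot be told apart in the comparisons of 5 × FAD with WT. Fold changes without 5 × FAD 1 and 5 × FAD 2 are given where this moved a named value by over 1.5 times. Such a fit keeps only 1 library of 5 × FAD in a region, 5 × FAD 3, so no p-value is given for it. The tissue labels were checked on marker genes. Of the hippocampus list, 3 of 10 genes are in the table, and their sum was between 114 and 134 CPM (the usual depth-scaled counts, here with TMM factors) in hippocampus libraries and between 32.0 and 54.7 CPM in cortex libraries. Most of that sum was Zbtb20, at between 106 and 125 CPM in hippocampus and between 25.7 and 48.0 CPM in cortex. Calb1 overlapped between the regions, and Dsp was at most 1.39 CPM. Of the cerebral cortex list, 7 of 10 are in the table, with sums between 196 and 328 CPM in hippocampus and between 362 and 599 CPM in cortex. Most of the cortex sum was Mef2c, at between 206 and 398 CPM in cortex and between 98.8 and 212 CPM in hippocampus. By edgeR 5 of the 7 were lower in hippocampus at an adjusted p under 0.05. Only Rorb did not overlap between the regions, at between 4.24 and 8.52 CPM in hippocampus and between 11.5 and 15.3 CPM in cortex.

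The table lists non-coding transcripts of these genes, with 1 exception, and not their protein-coding ones. Of the 219 member transcripts, 147 are annotated as retained-intron transcripts, which keep intron sequence that the coding transcripts of the gene splice out, 71 are processed transcripts, which have no open reading frame annotated, and 1, of Setd4, is protein-coding. The retained-intron transcripts held 82.8% of the members' counts and the processed transcripts 17.1%. Whether a whole intron is kept can be read from the annotation: 43 of the 147 retained-intron transcripts (29.3%) span at least 1 intron of a protein-coding transcript of the gene from end to end, against 29.6% of the 18688 retained-intron transcripts of all genes in the table. The distinct introns spanned by these transcripts, leaving out those of Hdac3, are 50, with a median length of 257.5 bp (57 to 2478 bp) and a median GC content of 54.3%. The usual GT and AG ends were found in 48 of them and a GC and AG pair in 2.

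The splice sites of kept introns in 6 of the more highly counted members are printed to show what sequence the counted transcripts hold. Each line gives the last 8 exon bases and the first 16 intron bases at the 5′ end, with the donor dinucleotide in capitals, or the last 20 intron bases and the first 6 exon bases at the 3′ end, with the acceptor dinucleotide in capitals. Sequences are of the sense strand, read from the GENCODE vM21 transcripts of GRCm38.
Setdb1-204 donor, intron chr3:95337266-95338345 (minus strand): cgggataaGTgagttggtggggtg
Setdb1-204 acceptor: tcacccttttctctctgcAGatccaa
Kat6b-206 donor, intron chr14:21624889-21626718 (plus strand): gtcacctgGTaggggtcaaaagac
Kat6b-206 acceptor: cttctggtttcaaatgacAGatactg
Setd5-204 donor, intron chr6:113109991-113110373 (plus strand): cttatgctGTgagtatgcacttgt
Setd5-204 acceptor: ctgcttctccccctgtccAGacgatc
Kmt2e-208 donor, intron chr5:23493508-23495985 (plus strand): caaagaagGTatgcgtcctaacga
Kmt2e-208 acceptor: caaatgtttctgttctctAGcacttg
Kdm3a-211 donor, intron chr6:71620211-71620443 (minus strand): gtgaggagGTaaaagcagtgataa
Kdm3a-211 acceptor: ctttgtcttctttttttaAGattcca
Kdm5b-205 donor, intron chr1:134588045-134588776 (plus strand): taaataagGCaagtgctggggcag
Kdm5b-205 acceptor: ttttttgctattattaacAGttagtc
Kdm5b-205 keeps 1 of the 2 introns with a GC donor. The Kmt2e-208 intron, of 2478 bp, is the longest of the 50.

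Levels of the 53 genes were compared per length, as the sum over a gene's transcripts of mean CPM per kilobase. Setd5, a SET domain protein whose loss of function is a cause of intellectual disability, was highest at 177 CPM per kilobase, followed by Hdac5 (109), a class II deacetylase that shuttles between nucleus and cytoplasm, and Setd3 (85.7), which methylates a histidine of actin. Kdm3a, an H3K9 demethylase, stood at 76.0 CPM per kilobase, the acetyltransferase Kat2a at 72.3, the H3K9 methyltransferase Setdb1 at 70.7 and the acetyltransferase Ep300 at 70.0. Hdac11, the one class IV deacetylase, reached 67.3 and Kat6b, a MYST acetyltransferase, 61.8. Eed, which reads the mark of Polycomb repressive complex 2, reached 57.5 and was first of the 4 core members of that complex. At the low end, Setd1a was at 1.52 CPM per kilobase, with at most 5 counts in a library, Kat6a at 3.59 and Kat2b at 4.88. For Kmt2a, Kmt2d, Nsd1, Suv39h2, Kdm3b and Kat5 no transcript was analysed here.

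On the scale of summed TMM-scaled CPM, where a longer transcript collects more reads, the 12 genes with the highest means were Setd5, Setdb1, Kat6b, Kat2a, Setd3, Ep300, Hdac5, Kdm5b, Kdm3a, Kmt2c, Hdac4 and Ehmt1. Setd5 measured 635, 488 and 613 CPM in WT hippocampus, 455, 589 and 411 in 5 × FAD hippocampus, 433, 425 and 461 in WT cortex and 448, 430 and 502 in 5 × FAD cortex. Setdb1, which silences retroviral elements, measured 337, 337 and 294 CPM in WT hippocampus, 255, 246 and 274 in 5 × FAD hippocampus, 314, 300 and 246 in WT cortex and 269, 252 and 298 in 5 × FAD cortex. The 2 genotypes overlapped in both regions for Setd5, while for Setdb1 all 3 hippocampus libraries of 5 × FAD lay below the 3 of WT and the cortex libraries overlapped. Ep300 ranged from 140 to 235 CPM over the 12 libraries, Hdac5 from 106 to 176 CPM and Ehmt1, a methyltransferase of H3K9 that pairs with Ehmt2, from 55.9 to 106 CPM. Over the 12 libraries, the coefficient of variation of the gene sums was lowest for Eed (9.77%), Setd1b (10.6%), Setd3 (10.6%) and Kdm3a (10.9%). It was highest for Kdm4c (72.3%), Kdm1b (68.5%), Kat6a (65.7%) and Kdm7a (58.2%).

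**Figure D1:**
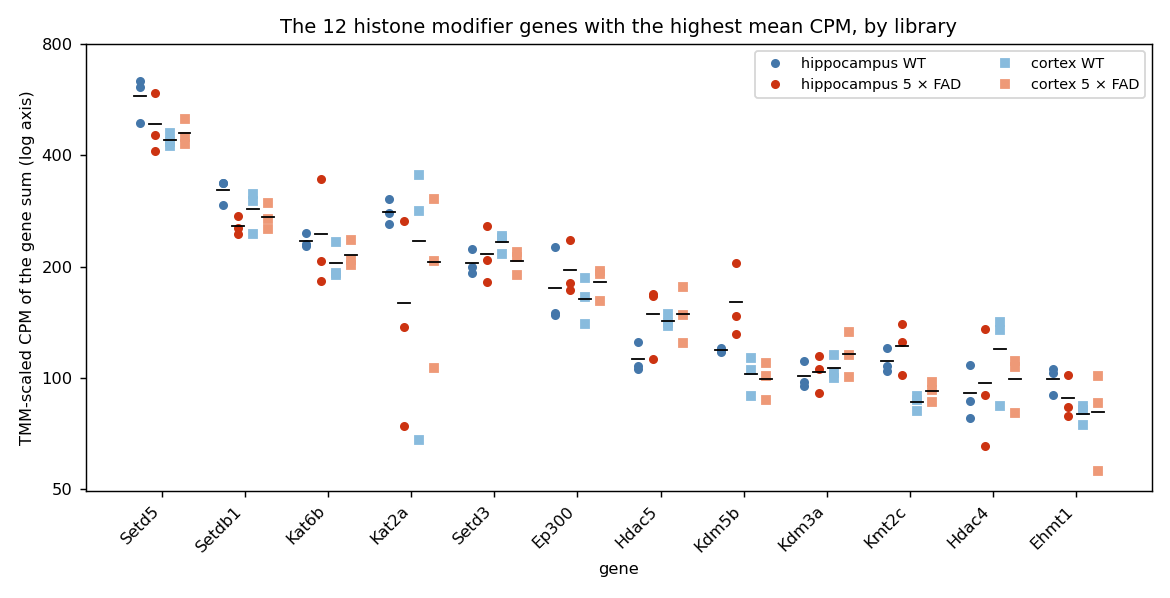
TMM-scaled CPM of the summed transcripts of each gene (y axis, log scale) in each of the 12 libraries, for the 12 histone modifier genes with the highest mean CPM; circles are hippocampus, squares are cortex, and each short line is the mean of the 3 libraries of a group. Kat2a spreads from 67.9 to 354 CPM, while the 12 values of Setd3 lie between 182 and 257 CPM.

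In the hippocampus of 5 × FAD mice, none of the histone modifier genes tested passed the threshold. Of 50 gene sums tested, 0 were called by the quasi-likelihood test of edgeR (p adjusted after Benjamini and Hochberg) over all 11345 genes and loci, where 0.0529% were called. With DESeq2, 0 of the members were called too. At an unadjusted p under 0.05 there were 3 members by edgeR (8.68% of all genes tested reached it) and 2 by DESeq2 (923 of all 11345). The log2 fold change, 5 × FAD over WT, was above 0 in 35 of the 50, beside 53.0% of all genes tested, with a median of 0.15 among the members and 0.03 among all genes. Without 5 × FAD 1 and 5 × FAD 2 it was above 0 in 27 of the 50, beside 6138 of all 12320 genes and loci. The 3 genes at an unadjusted p under 0.05 were Hdac3, Hdac1 and Dot1l, and their adjusted p was between 0.507 and 0.541.

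Class I deacetylases work in nuclear repressor complexes. Hdac3, the catalytic subunit of the NCoR and SMRT complexes (chromosome 18, 37935844 to 37955016, minus strand, GRCm38), measured 45.8, 48.3 and 44.8 CPM in WT hippocampus and 91.1, 127 and 60.03 CPM in 5 × FAD hippocampus. The groups did not overlap, and 5 × FAD 1 and 5 × FAD 2 were the highest. Of the 50 gene sums tested in the hippocampus, 9 had genotype groups that did not overlap. The share over all genes is not given here, so such separation is a description only. The log2 fold change with its standard error (SE) was 1.03 (± 0.28 SE, adjusted p = 0.507). It fell to 0.40 when those 2 libraries were left out. Hdac1, a subunit of the Sin3, NuRD and CoREST complexes, measured 31.4, 28.3 and 28.2 CPM in WT and 38.2, 41.8 and 60.5 CPM in 5 × FAD. All 3 libraries of 5 × FAD lay above those of WT, with a log2 fold change of 0.70 (± 0.23 SE, adjusted p = 0.526). That value was 1.07 without 5 × FAD 1 and 5 × FAD 2. Hdac2, the close paralog of Hdac1, measured between 6.37 and 7.03 CPM in WT and between 7.16 and 10.7 CPM in 5 × FAD, with a log2 fold change of 0.49 (± 0.28 SE, adjusted p = 0.633).

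Dot1l, the methyltransferase of H3K79 on transcribed genes, measured 10.7, 11.7 and 9.33 CPM in WT hippocampus and 21.0, 14.3 and 15.1 CPM in 5 × FAD hippocampus. Its groups did not overlap, and its log2 fold change was 0.69 (± 0.26 SE, adjusted p = 0.541). Among the Jumonji demethylases, Kdm5b, which removes methyl groups from H3K4, measured 120, 118 and 118 CPM in WT and 205, 131 and 147 CPM in 5 × FAD. That is a log2 fold change of 0.46 (± 0.20 SE, adjusted p = 0.579), which was 0.25 without 5 × FAD 1. The transcript Kdm5b-202 held 14.2%, 13.2% and 15.8% of the gene's counts in WT and 40.5%, 12.7% and 32.8% in 5 × FAD. Kdm4a, a demethylase of H3K9 and H3K36, stood at 11.3, 12.8 and 13.2 CPM in WT and 19.7, 14.6 and 17.8 CPM in 5 × FAD, and the fitted log2 difference was 0.51 (± 0.23 SE, adjusted p = 0.587). All 10 Jumonji demethylases tested had a log2 fold change above 0 in the hippocampus, with a median of 0.27 and 0 called. The 10 were above 0 under both other scalings, and 6 of the 10 without 5 × FAD 1 and 5 × FAD 2.

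In the other role groups, the 3 class I deacetylases tested were above 0 (median 0.70), as were the 3 tested H3K4 methyltransferases (median 0.17), Crebbp and Ep300 (median 0.20), 3 of 4 members of Polycomb repressive complex 2 (median 0.20) and 4 of 5 class II deacetylases (median 0.15). With library size as the only scaling, all 5 class II deacetylases were above 0. Without 5 × FAD 1 and 5 × FAD 2, 2 of the 4 members of Polycomb repressive complex 2 were above 0, with a median of -0.09. Below 0 were 3 of 4 H3K9 methyltransferases (median -0.13), both amine oxidase demethylases, Kdm1a and Kdm1b (median -0.62), and Kat2a (-0.80 ± 0.42 SE). Kat2a measured 261, 305 and 279 CPM in WT and 74.1, 137 and 266 CPM in 5 × FAD, and its log2 fold change was -0.06 without 5 × FAD 1 and 5 × FAD 2. Single WT libraries were high in the amine oxidase demethylases. Kdm1b measured 18.2, 4.68 and 4.55 CPM in WT and at most 6.42 CPM in 5 × FAD, with a log2 fold change of -1.04 that was -0.07 without WT 1 and -0.49 without 5 × FAD 1 and 5 × FAD 2. Kdm1a measured 38.7, 66.2 and 35.0 CPM in WT and between 27.9 and 51.1 CPM in 5 × FAD, with a log2 fold change of -0.21 that was 0.12 without WT 2 and -0.72 without 5 × FAD 1 and 5 × FAD 2. Setdb1 had a log2 fold change of -0.29 (± 0.15 SE, adjusted p = 0.609), and Kmt2e, a SET domain protein without a known methyltransferase activity, one of -0.41 (± 0.21 SE, adjusted p = 0.616). Kmt2e measured between 86.5 and 93.5 CPM in WT and 55.7, 85.7 and 55.6 CPM in 5 × FAD, and its log2 fold change was -0.66 without 5 × FAD 1 and 5 × FAD 2. Not one of these differences passed the test.

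Sums of cell type marker genes also varied between these libraries. By edgeR, 0 gene sums of the neuronal, astrocyte, microglia and oligodendrocyte markers were called between 5 × FAD and WT, here or in the cortex. The 4 microglia markers in the table, of 10, summed to between 24.3 and 35.3 CPM in WT hippocampus and between 46.4 and 196 CPM in 5 × FAD hippocampus. Most of that was Trem2, at 178 and 187 CPM in 5 × FAD 1 and 5 × FAD 2, 40.5 CPM in 5 × FAD 3 and between 19.4 and 32.3 CPM in WT. The 5 oligodendrocyte markers, of 9, summed to between 349 and 439 CPM and between 506 and 592 CPM, and the 5 astrocyte markers, of 8, to between 1426 and 1545 CPM and between 530 and 1200 CPM, in the same order. A single gene made up most of each sum. Slc1a3 was at 1435, 1301 and 1344 CPM in WT and 510, 418 and 1051 CPM in 5 × FAD, and Cnp was between 163 and 250.4 CPM and between 281 and 416 CPM. The median log2 fold change of the tested markers was 0.02 for astrocytes and -0.08 for oligodendrocytes. The 8 neuronal markers, of 10, summed to between 1580 and 3485 CPM in WT and between 1825 and 7223 CPM in 5 × FAD. The highest sum was that of 5 × FAD 1, with Slc17a7 at 3717 CPM and Gad1 at 2390 CPM. Gad1 was at 17.6 CPM in 5 × FAD 2. Map2 was between 432 and 479 CPM in WT and between 328 and 380 CPM in 5 × FAD. The median log2 fold change of the tested neuronal markers was 0.50 by gene sums and -0.14 by transcripts. No marker in the table was at 0 in all libraries. The part of cell composition in the members' values was not tested, and in these bulk samples a change in the number of cells of a type and a change in RNA per cell cannot be told apart.

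**Figure D2:**
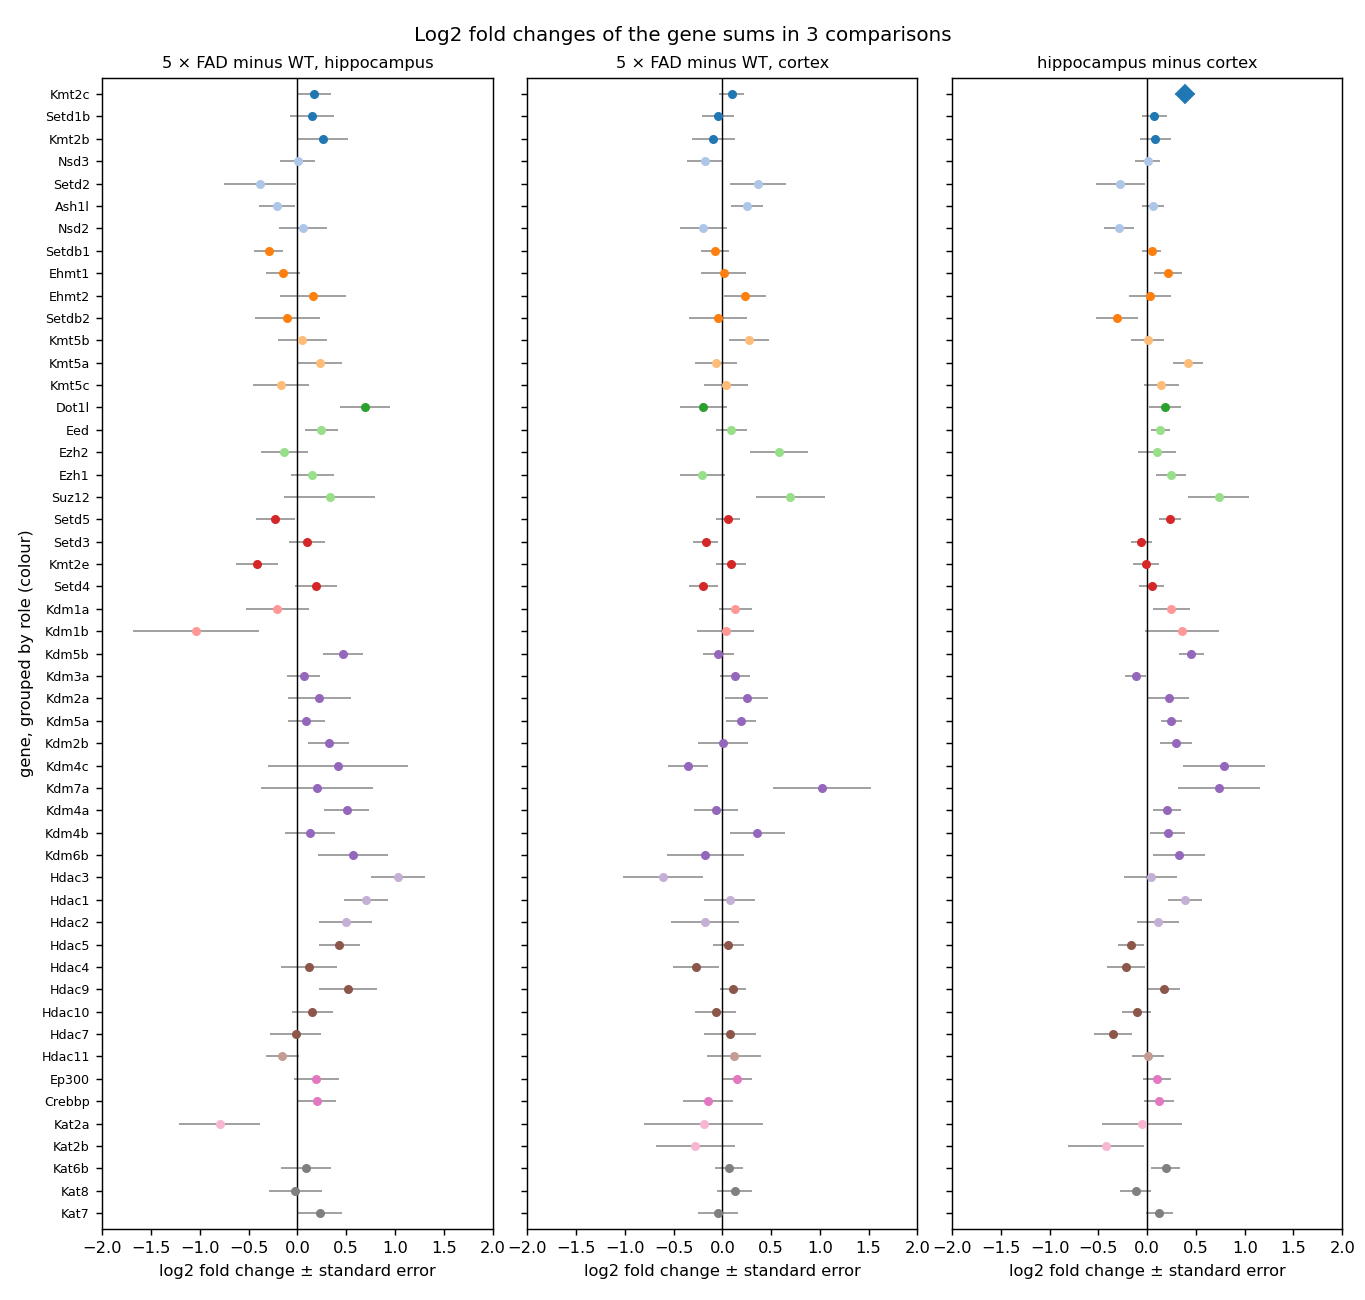
Log2 fold changes of the gene sums with standard errors (x axis) for every tested histone modifier gene (y axis, grouped by role in colour), for 5 × FAD minus WT in the hippocampus, 5 × FAD minus WT in the cortex and hippocampus minus cortex. The diamond is the 1 gene called, Kmt2c, between the regions; Hdac3 at 1.03 in the hippocampus and Kdm7a at 1.02 in the cortex are the highest points of their panels.

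Transcripts were also tested one at a time. In the hippocampus, of 158 member transcripts tested, 0 were called by edgeR and 0 by DESeq2, beside 0.0183% of all transcripts by edgeR. At an unadjusted p under 0.05 were 9 by edgeR (7.58% of all transcripts) and 7 by DESeq2 (1362 of all 21894). The processed transcript Hdac10-208 (ENSMUST00000153195), of a class II deacetylase that acts on polyamines, counted 24, 7 and 8 in WT against 45, 39 and 25 in 5 × FAD, and its fitted log2 difference was 1.63 (± 0.54 SE, adjusted p = 0.612). Kdm2b-206 (ENSMUST00000123479), of an H3K36 demethylase that also belongs to a Polycomb complex, counted 24, 25 and 39 in WT against 43, 52 and 63 in 5 × FAD, and its fitted log2 difference was 0.98 (± 0.32 SE, adjusted p = 0.612). In each of these the 5 × FAD counts lay above the WT counts. Kdm5b-202 (ENSMUST00000112197) counted 80, 73 and 82 in WT against 332, 72 and 195 in 5 × FAD, so its groups overlapped in counts, with a log2 fold change of 1.52 (± 0.54 SE, adjusted p = 0.616) that was 0.93 without 5 × FAD 1. Hdac1-204 (ENSMUST00000139305) counted 57, 55 and 37 in WT against 66, 81 and 75 in 5 × FAD, and its fitted log2 difference was 0.73 (± 0.25 SE, adjusted p = 0.612). Lower in 5 × FAD was Ezh2-212 (ENSMUST00000171614), of the catalytic subunit of Polycomb repressive complex 2, with 28, 37 and 26 counts in WT against 14, 14 and 19 in 5 × FAD and a fitted log2 difference of -0.79 (± 0.30 SE, adjusted p = 0.638), which was -0.49 without 5 × FAD 1 and 5 × FAD 2.

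In the cortex, no histone modifier gene passed the test between 5 × FAD and WT either. Of 51 gene sums tested, 0 were called by edgeR and 0 by DESeq2, beside 0.0175% of all genes by edgeR. By either tool 0 had an unadjusted p under 0.05 (6.68% of all genes by edgeR and 665 of all 11409 by DESeq2). The log2 fold change was above 0 in 28 of the 51, beside 49.9% of all genes tested, with a median of 0.03 (all genes, -0.00). Kdm7a, a demethylase of H3K9 and H3K27, had the largest, 1.02 (± 0.51 SE, adjusted p = 0.755), from 9.88, 7.33 and 9.43 CPM in WT and 6.44, 19.2 and 28.7 CPM in 5 × FAD. One library of 5 × FAD was below all 3 of WT and the others above, and the log2 fold change was 0.51 without 5 × FAD 3 and 1.69 without 5 × FAD 1 and 5 × FAD 2. Suz12, a core subunit of Polycomb repressive complex 2, measured 3.53, 3.66 and 4.28 CPM in WT and 7.10, 7.73 and 3.87 CPM in 5 × FAD, and the fitted log2 difference was 0.70 (± 0.36 SE, adjusted p = 0.762). That value was 0.02 without 5 × FAD 1 and 5 × FAD 2. Ezh2, of the same complex, had 0.58 (± 0.30 SE, adjusted p = 0.766), which was 0.20 without them. Kdm4c at -0.35 (± 0.21 SE, adjusted p = 0.783), which was -0.55 without them, and the H3K36 methyltransferase Ash1l at 0.25 (± 0.16 SE, adjusted p = 0.804) came next. In the same libraries the microglia markers summed to between 38.8 and 64.9 CPM in WT and between 33.7 and 243 CPM in 5 × FAD (Trem2 was at 232, 183 and 19.8 CPM in the 3 libraries of 5 × FAD and between 36.8 and 53.5 CPM in WT), and the oligodendrocyte markers to between 299.6 and 469 CPM and between 539 and 613 CPM; their part in the members' values was not tested.

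Of 151 member transcripts tested in the cortex, 0 were called by edgeR and 0 by DESeq2, beside 0.0545% of all transcripts. At an unadjusted p under 0.05 there was 1 by edgeR (5.34% of all transcripts) and 2 by DESeq2 (959 of all 21999). The 1 was Hdac2-203 (ENSMUST00000123010), with 6, 16 and 6 counts in WT against 24, 21 and 25 in 5 × FAD and a fitted log2 difference of 1.31 (± 0.39 SE, adjusted p = 0.851). Its 3 counts in 5 × FAD lay above its 3 in WT, and in the hippocampus it had between 14 and 17 counts in WT and between 12 and 22 in 5 × FAD. Hdac2 has 2 transcripts in the table. The other, Hdac2-204, held 79.3%, 48.4% and 82.9% of the gene's counts in WT cortex. In 5 × FAD cortex it held 0%, 0% and 41.9%. The Hdac2 gene sum had a mean of 7.83 CPM in WT cortex and 6.90 CPM in 5 × FAD cortex.

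A further test asked whether the difference between 5 × FAD and WT itself differed between hippocampus and cortex. Of 51 gene sums, 0 were called by edgeR and 0 by DESeq2, beside 0.0% of all genes by edgeR. At an unadjusted p under 0.05 were 3 by edgeR (7.0% of all genes) and 2 by DESeq2 (856 of all 12109). The difference of effects was above 0 in 27 of the 51, beside 49.3% of all genes. Hdac3 had the smallest p. Its log2 fold change was 1.03 in the hippocampus and -0.61 in the cortex, a difference of 1.61 in the joint fit (± 0.54 SE, adjusted p = 0.657). Without WT cortex 2, whose 136 CPM was the highest of the cortex libraries, the cortex value was 0.04 and the difference 0.99, and without 5 × FAD 1 and 5 × FAD 2 the cortex value was -0.33. Dot1l followed with 0.86 (± 0.33 SE, adjusted p = 0.666) and Ash1l with -0.49 (± 0.22 SE, adjusted p = 0.699). Kmt2e at -0.53 (± 0.26 SE, adjusted p = 0.716) and Ezh2 at -0.74 (± 0.39 SE, adjusted p = 0.724) completed the 5 with the smallest p. Among transcripts, 0 of 175 were called by either tool, beside 0.00812% of all by edgeR. At an unadjusted p under 0.05 were 9 by edgeR (6.89% of all) and 7 by DESeq2 (1636 of all 24632). Hdac3-203 (ENSMUST00000144471) came first, with 3.79 (± 1.23 SE, adjusted p = 0.650), which was 2.13 without WT cortex 2.

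Between the regions, 1 gene passed the test: Kmt2c, a methyltransferase of H3K4 at enhancers, was higher in the hippocampus. Of 51 gene sums tested over the 12 libraries, edgeR called this 1 (6.82% of all genes were called). DESeq2 called it and Kdm5b, beside 1204 of all 12109 genes and loci tested. By edgeR 6 had an unadjusted p under 0.05 (19.6% of all genes). Kmt2c (chromosome 5, 25271798 to 25498783, minus strand, GRCm38) measured 108, 120 and 105 CPM in WT hippocampus, 140, 125 and 102 CPM in 5 × FAD hippocampus, 81.6, 89.7 and 87.1 CPM in WT cortex and 97.5, 92.8 and 86.2 CPM in 5 × FAD cortex. Every hippocampus library lay above every cortex library. The log2 fold change was 0.39 (± 0.10 SE, adjusted p = 0.048). Over 21 alternative fits it ranged from 0.32 to 0.44, and 3 of the 21 passed the threshold, with adjusted p from 0.0122 to 0.449. Leaving out any 1 library ended the call except when 5 × FAD hippocampus 3 was the one left out. Of the gene's counts, 91.6% fell on 1 retained-intron transcript, Kmt2c-203 (ENSMUST00000172626), with between 381 and 529 counts in hippocampus libraries and between 283 and 381 in cortex libraries. Tested alone, it had a log2 fold change of 0.42 (± 0.11 SE, adjusted p = 0.086).

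Kdm5b was next, at 0.45 (± 0.13 SE, adjusted p = 0.058), and was called in 2 of 21 alternatives. It measured between 118 and 120 CPM in WT hippocampus, between 131 and 205 CPM in 5 × FAD hippocampus, between 89.2 and 113 CPM in WT cortex and between 87.5 and 110 CPM in 5 × FAD cortex, so the regions did not overlap. Kmt5a, which adds the first methyl group to H4K20, had 0.41 (± 0.15 SE, adjusted p = 0.154), Suz12 0.73 (± 0.31 SE, adjusted p = 0.216), the H3K4 demethylase Kdm5a 0.25 (± 0.11 SE, adjusted p = 0.238) and Hdac1 0.38 (± 0.17 SE, adjusted p = 0.249). For these 4 the values of the regions overlapped. Of the members tested, 38 of 51 had a log2 fold change above 0, beside 50.5% of all genes, and the median was 0.11 (all genes, 0.00). With library size as the only scaling, 32 of the 51 were above 0, beside 5432 of all 12109 genes and loci. In WT libraries alone it was 29 of 50 (5481 of all 11431), and in 5 × FAD libraries alone 32 of 50 (5821 of all 11404).

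Of the 10 Jumonji demethylases tested, 9 were above 0 (median 0.27), with Kdm3a at -0.12 the exception. It was 7 of 10 in WT libraries and 9 of 10 in 5 × FAD libraries alone. Of the 5 class II deacetylases, 1 was above 0 (median -0.17). Hdac9 was that one, at 0.17, and Hdac7 was lowest, at -0.35 (± 0.19 SE, adjusted p = 0.366). The 4 members of Polycomb repressive complex 2 were above 0 (median 0.19), and 3 of the 4 were so in 5 × FAD libraries alone.

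**Figure D3:**
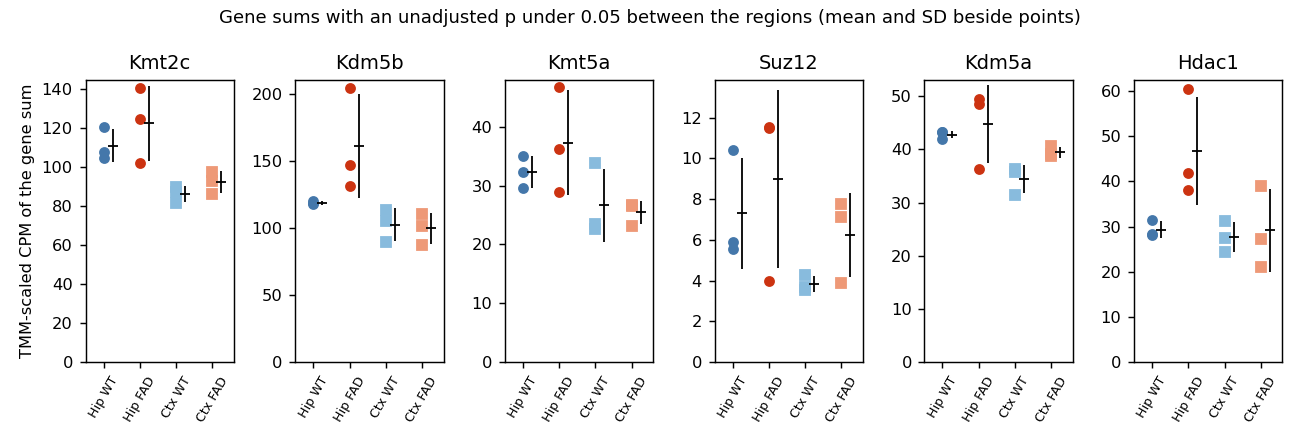
TMM-scaled CPM of the gene sum (y axes, from 0) in the 4 groups for the 6 histone modifier genes with an unadjusted p under 0.05 between the regions; points are libraries and the bar beside them is the mean with its SD. For Kmt2c the 6 hippocampus libraries lie between 102 and 140 CPM and the 6 cortex libraries between 81.6 and 97.5 CPM.

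Among transcripts, 0 of 175 members were called between the regions by edgeR (2.55% of all transcripts were called). DESeq2 called 2, Kmt2c-203 and Hdac1-204, beside 1378 of all 24632. At an unadjusted p under 0.05 there were 12 by edgeR (14.3% of all transcripts) and 11 by DESeq2 (3516 of all 24632). Hdac1-204 came first, with a log2 fold change of 0.64 (± 0.16 SE, adjusted p = 0.070). Kmt5a-205 (ENSMUST00000135667) had 0.71 (± 0.21 SE, adjusted p = 0.123) and Kdm5b-206 (ENSMUST00000191572), a single-exon transcript, 0.34 (± 0.11 SE, adjusted p = 0.175).

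Libraries of the same group differed far more in some member transcripts than in others. For 123 member transcripts with a mean of at least 20 counts, the coefficient of variation within groups of 3 libraries was compared with that expected from counting alone, and each transcript's share of own bases, those outside every exon of the gene's protein-coding transcripts, was taken from the annotation. This split was chosen after the values were seen and is given as a description. In the 62 transcripts with mostly own bases, the median coefficient of variation was 24.2%, and 10 (16.1%) were over 3 times counting error. In the 61 with mostly bases shared with coding exons, the median was 36.3%, and 30 (49.2%) were over 3 times. The members were like other genes in this: over all transcripts of protein-coding genes in the table the medians were 23.3% (5927 transcripts) and 35.4% (6642 transcripts), with 19.98% and 46.9% over 3 times. The tightest member was Kdm5b-206, with 89.0% own bases and a coefficient of variation of 8.69%, and the widest was Kdm4c-206, with 38.6% own bases and 159%. Setdb1-204 went against the split, with 19.1% own bases and a coefficient of variation of 10.95%.

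**Figure D4:**
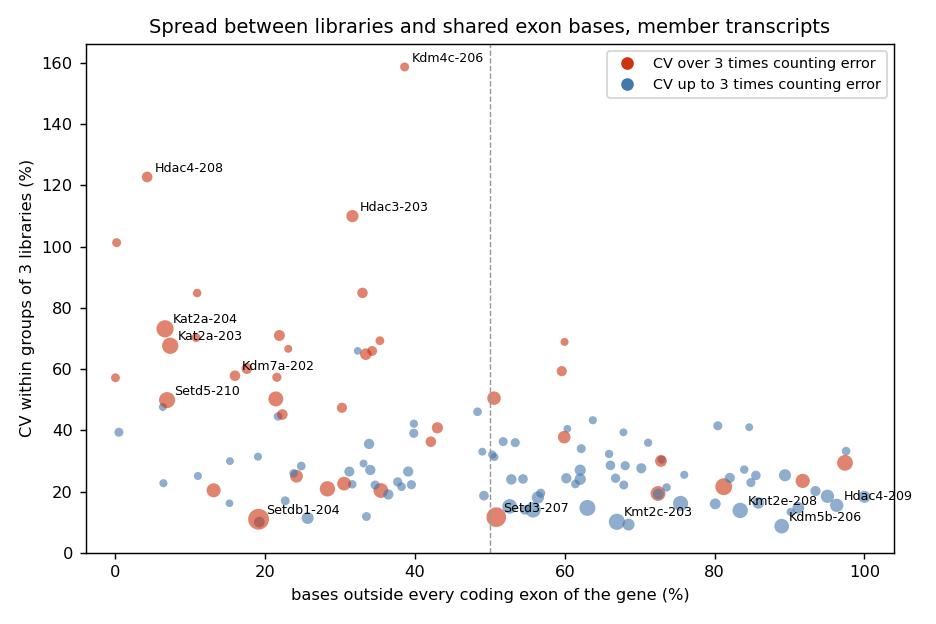
Coefficient of variation within groups of 3 libraries (y axis, %) against the share of bases outside every coding exon of the gene (x axis, %) for 123 member transcripts with a mean of at least 20 counts; point size grows with mean counts, red points are over 3 times counting error and the dashed line marks 50%. Of the red points, 30 lie left of the line and 10 right of it.

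Several transcripts with a wide spread were high in some libraries of a group and low in others. Hdac4-208 (ENSMUST00000189303), a processed transcript of a class II deacetylase, has 23 exons and 4.23% own bases, and had 152, 0 and 0 counts in WT hippocampus, 182, 0 and 0 in 5 × FAD hippocampus, 249, 0 and 124 in WT cortex and 0, 106 and 122 in 5 × FAD cortex. It was the one member transcript that passed 100 counts in part of the libraries and stayed within 3 in the remaining ones, 6 libraries each way, and a count of 0 allows up to 3 counts. Hdac4-209, a retained-intron transcript of the same gene with 96.3% own bases, had between 126 and 226 counts in all 12. The Hdac4 gene sum ranged 2.16-fold over the 12 libraries.

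In Kat2a, the acetyltransferase of the SAGA complex, 2 processed transcripts with 6.62% and 7.31% own bases carried all counts. Kat2a-204 had 641, 1055 and 413 counts in WT hippocampus, 54, 201 and 1018 in 5 × FAD hippocampus, 602, 103 and 741 in WT cortex and 244, 570 and 576 in 5 × FAD cortex. Kat2a-203 had 579, 376 and 812, then 243, 393 and 60, then 903, 212 and 249, then 235, 208 and 763 counts in the same order. The gene sum ranged 5.21-fold, and the 2 transcripts did not rise and fall together: in 5 × FAD hippocampus 3, Kat2a-204 was near its highest and Kat2a-203 at its lowest.

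Hdac3, whose gene sum had the smallest p in the hippocampus, has 3 transcripts in the table. Hdac3-203 (ENSMUST00000144471) had 64, 51 and 47 counts in WT hippocampus, 218, 374 and 40 in 5 × FAD hippocampus, 61, 509 and 53 in WT cortex and 44, 73 and 58 in 5 × FAD cortex. Hdac3-204 (ENSMUST00000153945) was at 0 in the 3 libraries where Hdac3-203 was over 200, and between 25 and 43 in the other 9. Hdac3-202 (ENSMUST00000143660), with 56.4% own bases, had 118, 147 and 125 counts in WT hippocampus and 147, 177 and 171 in 5 × FAD hippocampus, a log2 fold change of 0.49 (± 0.19 SE, adjusted p = 0.640). In the hippocampus the log2 fold change of Hdac3-203 was 2.10 (± 0.71 SE, adjusted p = 0.612), and it was -0.26 without 5 × FAD 1 and 5 × FAD 2. The 3 high libraries were 5 × FAD hippocampus 1, 5 × FAD hippocampus 2 and WT cortex 2, and what set them apart was not tested.

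**Figure D5:**
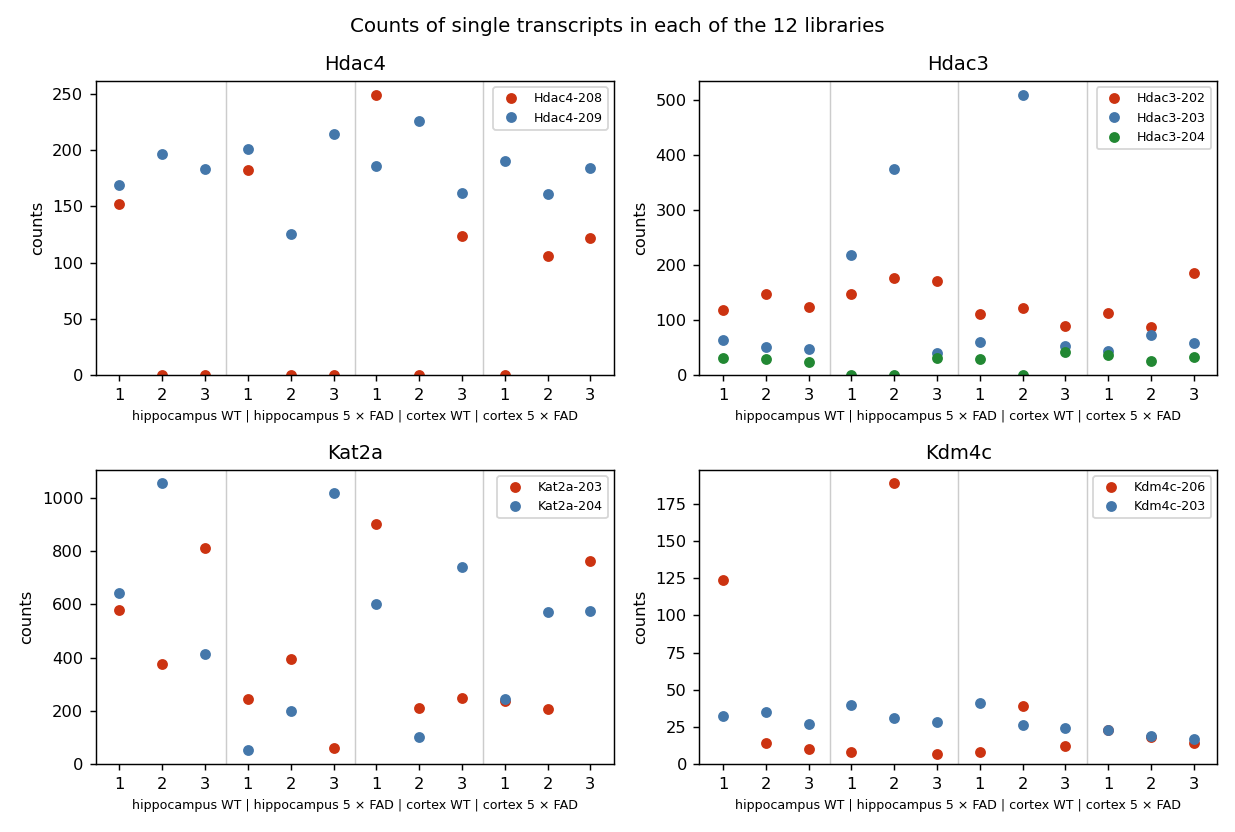
Counts (y axis) of single transcripts of Hdac4, Hdac3, Kat2a and Kdm4c in each of the 12 libraries (x axis, 3 libraries for each group between the grey lines). Hdac4-208 is at 0 in 6 libraries and between 106 and 249 counts in the other 6, and Kdm4c-206 is at 124 and 189 counts in 2 hippocampus libraries and at most 39 elsewhere.

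Partner genes of the same complexes were tested in the same fits. Of 138 genes listed (Polycomb repressive complex 1 and partners of complex 2, COMPASS, NuRD, Sin3, CoREST, SAGA and BAF subunits, arginine methyltransferases, sirtuins and other histone modifiers), 112 are in the table. Between 5 × FAD and WT, 0 of 103 gene sums tested in the hippocampus and 0 of 102 in the cortex were called by edgeR, beside 0.0529% and 0.0175% of all genes. Between the regions, 3 of 106 were called, beside 6.82% of all genes. Brd9, a bromodomain subunit of a BAF complex, had a log2 fold change of 0.56 (± 0.09 SE, adjusted p = 0.00485), Rcor3, a CoREST scaffold for Kdm1a and Hdac1, 0.60 (± 0.13 SE, adjusted p = 0.0152), and Phc1, of Polycomb repressive complex 1, -1.004 (± 0.25 SE, adjusted p = 0.0363).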

How the data were processed

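The authors removed ribosomal RNA, made stranded paired-end libraries and deposited raw read counts per long non-coding transcript for 12 libraries. The published methods also describe removal of linear RNA with RNase R. They do not say whether that step applied to the libraries counted here. Per the labels, Trimmomatic 0.36 and edgeR were used. The assigning program, genome build and annotation are not given in the sources used here. The deposited counts were tested as they stand and after summing by GENCODE vM21 gene, with edgeR 4.0.16 in R 4.3.3 (filterByExpr, TMM, glmQLFit, glmQLFTest) and Benjamini-Hochberg adjustment over the whole table, at a threshold of 0.05. The scripts were tested on simulated counts. Libraries hold 3517967 to 5014389 counts. The fits compare 5 × FAD with WT in each region (6 libraries each), hippocampus with cortex, and the difference of the 2 genotype effects (12 libraries). Names were chosen mainly from the 12 genes with the highest mean CPM, the top gene of each role, the 5 gene sums and 5 transcripts with the smallest p per comparison, transcripts that passed 100 counts in part of the libraries and stayed within 3 elsewhere, and members with few or no counts. Not all of these are printed, and outside the hippocampus only part of the 5 transcripts is. Members and lists were chosen with earlier results of these data known. Sources give 2 females and 1 male per group, so replicates were taken as separate mice, though no label ties a library to a mouse. Counting strand is not stated, so reads of overlapping genes, and of transcripts that share exons, may be split uncertainly. Alternatives were other scalings and filters, DESeq2 1.42.0, a replicate block, and leaving out libraries.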

Additional observations from a re-analysis of the deposited data

How the results depend on the processing

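Between the regions, the count of called gene sums, 1 by edgeR with TMM, was 0 under DESeq2 size factors, library size only, no filter, at least 10 counts in every library, WT libraries only and 5 × FAD libraries only, and 2 under DESeq2. It was 0 to 1 when 1 library was left out, and it was 1 only without 5 × FAD hippocampus 2, where the call was Kdm5b, or 5 × FAD hippocampus 3, where it was Kmt2c. With the replicate number as a block the count was 0 and the adjusted p of Kmt2c was 0.0963. The count of called transcripts, 0 by edgeR, was 2 under DESeq2 and 0 to 1 when 1 library was left out. Hdac3 ENSMUST00000144471 in the hippocampus reversed from 2.10 to -0.26 without 5 × FAD 1 and 5 × FAD 2. Same-numbered libraries of the 2 regions had correlations of deviations between -0.0566 and 0.165. For libraries of the same genotype with other numbers the range was -0.140 to 0.103. Such correlations cannot show whether 2 libraries came from the same mouse. The main fits did not pair libraries across the regions. In the comparisons of 5 × FAD with WT and in their difference, the members called stayed 0 in all alternatives run. The difference in median coefficient of variation between transcripts with mostly shared and mostly own bases was 12.1 points, 21.1 with a cut at 25%, 8.39 at 75%, 14.4 at a minimum mean of 10 counts and 19.2 at 50; these alternatives were chosen after seeing the data.
Over the whole table, DESeq2 called 127 transcripts in the hippocampus (edgeR 4), 102 in the cortex (12), 108 for the difference of effects (2) and 1378 between the regions (628). Of gene sums it called 84 in the hippocampus (edgeR 6), 53 in the cortex (2) and 1204 between the regions (826). At this depth the filter on low counts left Setd1a, with at most 5 counts in a library, and Kat6a, with at most 16, out of the gene sum tests. Kat2b, with at most 13 counts, was left out of the comparison of 5 × FAD with WT in the hippocampus.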
